A study of Mus musculus with 12 samples.

Results

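The 38 genes described here encode the machinery that copies DNA in S phase, from origin licensing to the repair of chromatin behind the fork. They were chosen by gene name, from a list drawn up with earlier results of these data known, and all 38 were found among the 43280 genes of the deposited count matrix. A filter on low counts left 17030 genes for testing, and 37 of the 38 passed it; Fen1 did not.

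The mouse embryos, taken at embryonic day 15, carried the transgene Tg(KRT5-Venus)1Sgkd, a fluorescent reporter named for keratin 5, and RNA came from their submandibular salivary glands. Cells positive for E-cadherin (Ecad+), the adhesion protein of epithelia, were sorted by flow cytometry on Kit, a receptor tyrosine kinase, and on Venus, written here as K5. Kit+ cells gave the groups Kit+ K5+ and Kit+ K5-, and Kit- cells gave Kit- K5+ and Kit- K5-, with 3 libraries each and 12 libraries in all. Every group shared the transgene, the stage, the gland and the E-cadherin gate, and the labels name no other treatment. Library numbers in the titles run from 1 to 12, and each run of 4 numbers (1 to 4, 5 to 8 and 9 to 12) holds 1 library of every group. The sources used here do not say what the libraries of a run have in common, nor how many embryos or litters each library pooled. The p-values below therefore measure the spread between these libraries, which may be technical.

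DNA is copied once per cell cycle because origins are licensed in G1, when the origin recognition complex, Cdc6 and Cdt1 load the ring-shaped MCM helicase onto DNA, and fire only in S phase. Cdc45 and the GINS complex then turn the loaded helicase into an active one, primase and DNA polymerase alpha start each strand, and the PCNA clamp, placed by the RFC loader, holds the polymerases that extend it. Transcripts of these genes are known to rise from late G1 into S phase under the E2F transcription factors, and in a bulk sample their level is widely used as a sign of how much of the population is cycling. Kit marks cells of the end buds of the developing salivary gland and keratin 5 marks basal and duct progenitors.

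Because E2F factors are known to act on promoters of this gene set, the words TTTCCCGC, TTTGGCGC, TTTCGCGC and TTTGCCGC were searched on both strands in RefSeq promoter windows of 300 bases, 250 before and 50 after a gene's start (build GRCm38.p6). A window was at hand for 31 of the 38 genes, and 13 of these 31 (41.9%) held at least 1 of the words. Over all 27025 genes in the table the share was 2.605% (704 genes). The 13 were Orc1, Cdc6, Cdt1, Mcm3, Mcm5, Mcm6, Mcm7, Gins3, Rfc3, Pola1, Pold1, Lig1 and Uhrf1. Among lists used for comparison below, a word was found for 10 of 32 other replication genes, 8 of 20 regulators of the G1 to S transition, 1 of 22 mitosis genes and 0 of 11 general epithelial genes. The CCAAT box, searched as CCAAT and ATTGG, was found for 21 of the 31 genes (67.7%), 17 of the 22 mitosis genes (77.3%) and 41.1% of all genes. A match describes letters in a window, and the data hold no binding measurement. Stretches are shown for 4 genes whose transcripts are described below, read 5′ to 3′ on the gene's strand, with the searched words in capitals and with overlapping words running together:
Mcm5: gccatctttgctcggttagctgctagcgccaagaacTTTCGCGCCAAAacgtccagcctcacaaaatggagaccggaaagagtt
Mcm6: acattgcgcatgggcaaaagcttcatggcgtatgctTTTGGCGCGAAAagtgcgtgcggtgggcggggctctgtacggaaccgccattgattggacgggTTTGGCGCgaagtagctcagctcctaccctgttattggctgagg
Cdc6: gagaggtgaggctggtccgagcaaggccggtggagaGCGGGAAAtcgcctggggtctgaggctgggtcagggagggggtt
Uhrf1: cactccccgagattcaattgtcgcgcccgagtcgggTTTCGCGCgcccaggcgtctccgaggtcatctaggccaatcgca

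The Mcm5 stretch is chr8:75109320-75109403 on the plus strand, and its 2 overlapping words begin 153 and 149 bases before the RefSeq start. That of Mcm6 is chr1:128359709-128359851 on the minus strand, and its 3 words begin between 110 and 47 bases before the start. Neither stretch overlaps a gene of GENCODE M21. The Cdc6 stretch is chr11:98907977-98908056 on the plus strand, with its word 138 bases before the RefSeq start, and that of Uhrf1 is chr17:56304092-56304171 on the plus strand, with its word 185 bases before it. GENCODE M21 starts both genes further upstream, so that the Uhrf1 stretch is intronic there and the Cdc6 stretch is intronic apart from 5 exonic bases.

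Libraries held 5589037 to 13724364 counts. The 38 genes took 0.251% to 0.329% of the counts for Kit+ K5+, 0.269% to 0.405% for Kit+ K5-, 0.164% to 0.210% for Kit- K5+ and 0.213% to 0.247% for Kit- K5-. Mitochondrially encoded transcripts took 5.59% to 12.2% in Kit- K5- and 10.96% to 30.9% in the other groups. With these left out of the totals, the 38 genes took 0.363% to 0.401% for Kit+ K5+ and 0.371% to 0.467% for Kit+ K5-. The shares were then 0.216% to 0.296% for Kit- K5+ and 0.231% to 0.273% for Kit- K5-, so that the Kit- groups overlapped. Values below are CPM, counts set to a common library size by edgeR's cpm function after TMM scaling. Kit itself lay at 283 to 445 CPM in the 6 Kit+ libraries and at 10.03 to 26.4 in the 6 Kit- libraries. Krt5 lay at 13.5 to 22.9 for Kit- K5+ and at 0.853 to 7.15 for Kit- K5-, but at 1.57 to 9.93 for Kit+ K5+ and 0.317 to 4.63 for Kit+ K5-, so that its transcript did not separate the Kit+ groups and they are named by their sort labels. The Kit- K5- libraries stood apart. Their 18 general epithelial genes summed to 489 to 636 CPM against 1705 to 3396 in the other 9 libraries, and Cdh1, which encodes E-cadherin, was at 149 to 198 against 503 to 1111. Their 16 mesenchyme markers summed to 11167 to 18356 CPM against 399 to 921, and 1 of the 16 was at 0 in all 3. Mast cell markers (8 genes) summed to 5135 CPM in Kit+ K5- replicate 1 and to 2.75 to 218 in the other 11 libraries, and mast cells also carry Kit. Leukocyte and macrophage markers (13 genes) summed to 243 to 1188 CPM for Kit- K5-, 117 to 591 for Kit+ K5-, 62.9 to 76.5 for Kit- K5+ and 51.3 to 61.8 for Kit+ K5+. Erythroid markers (7 genes) summed to 136 to 765 CPM for Kit- K5- and 10.95 to 24.8 in the other groups. In bulk libraries, fewer cells of a type and less RNA per cell cannot be told apart.

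Exon length was taken over every annotated exon of a gene, and the order below depends on it. Rrm1, with 11012 exon bases, came to 19.2 ± 6.66 CPM per kb of exon (SD, n = 12 libraries), although its group means were 122 to 279 CPM. Set against this length, the highest levels were those of Mcm4, at 57.0 ± 13.5 CPM per kb of exon (SD, n = 12 libraries), Rrm2 at 52.8 ± 29.8 and Pcna at 50.1 ± 12.1. Uhrf1 (32.3 ± 13.3), Mcm3 (30.5 ± 9.62) and Gins4 (28.5 ± 6.46) followed, and the ranges of neighbours in this order overlapped. At the lower end were Chaf1a at 3.75 ± 1.19 and Gins3 at 2.26 ± 0.929, and Fen1 at 0.194 ± 0.115 lay below every tested gene of the set. Fen1, which encodes the flap endonuclease that trims Okazaki fragments, had 51 counts in all 12 libraries together and 0.191 to 1.05 CPM. Of its annotated exon bases, 78.8% are shared with Gm10143 on the opposite strand. Since the strand setting of the counting is not given, reads there cannot be assigned, and Fen1 is given no comparison. The same holds in part for Gins2, which shares 67.3% of its exon bases with Gse1, and for Chaf1a, which shares 52.5% with Ubxn6.

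**Figure D1:**
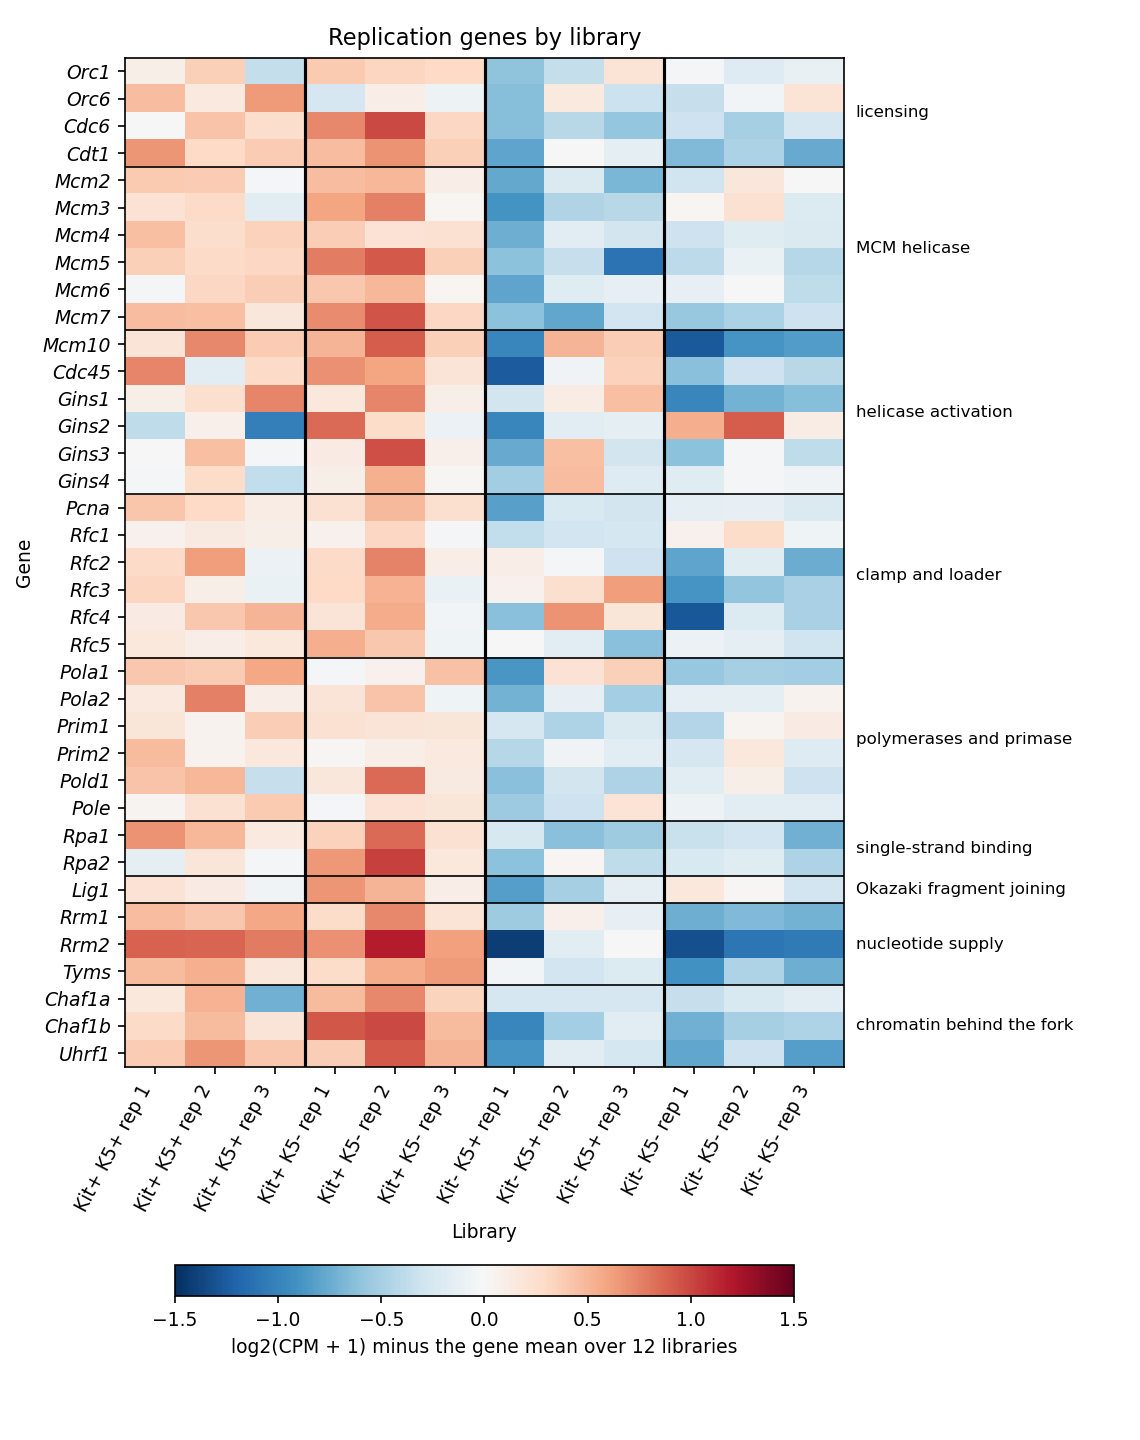
Level of 37 replication genes (rows, grouped by role) in 12 libraries (columns, grouped by sorted population), as log2(CPM + 1) minus the gene's mean over the 12 libraries. Red lies above and blue below the gene's own mean; the 6 Kit+ columns on the left are mostly red and the 6 Kit- columns mostly blue, and Gins2 and Rfc3 go against this pattern.

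The level of most of these transcripts followed Kit rather than K5. In 33 of the 37 genes the mean of both Kit+ groups lay above the mean of both Kit- groups; the exceptions were Orc6, Gins2, Rfc1 and Rfc3. The highest mean was in Kit+ K5- for 25 genes and in Kit+ K5+ for 10. The lowest was in Kit- K5+ for 22 genes and in Kit- K5- for 15, and in neither Kit+ group for any gene. The share of all genes with these orders of means was not computed. A higher level in Kit+ cells was not particular to the set. The Kit difference was positive for 26 of 26 mitosis genes in K5- cells and 25 of 26 in K5+ cells. For general epithelial genes these counts were 18 of 18 and 15 of 18. All 6 Kit+ libraries lay above all 6 Kit- libraries for 12 of the 37 genes, namely Cdc6, Cdt1, Mcm4, Mcm5, Mcm7, Pcna, Rpa1, Rrm1, Rrm2, Tyms, Chaf1b and Uhrf1; of all genes tested, 3.37% did so. The spread within a group differed between groups. The median coefficient of variation over the 37 genes was 14.1% for Kit+ K5+, 19.7% for Kit+ K5-, 23.6% for Kit- K5+ and 13.1% for Kit- K5-.

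Kit was first compared among K5- cells. In Kit+ K5- libraries Rrm2, the regulated subunit of ribonucleotide reductase, was 4.07-fold higher than in Kit- K5- (log2 difference 2.02 ± 0.30 (SE), adjusted p = 0.000328 by edgeR's quasi-likelihood test, higher in all 3 runs). The other genes called, at an adjusted p threshold of 0.05 over the 17030 genes, were Cdc6, Cdt1, Mcm5, Mcm7, Mcm10, Gins1, Rfc2, Rfc3, Rpa1, Rpa2, Rrm1, Tyms, Chaf1b and Uhrf1. This made 15 of 37 genes higher and 0 lower, where 10.1% of all genes tested were higher and 11.1% lower. With the run of library numbers as a block in the fit, 19 were higher and 0 lower, against 14.3% and 14.8% of all genes, and the 4 added were Mcm4, Rfc4, Pola1 and Chaf1a. The median log2 difference was 0.79 over the 37 genes and 0.05 over all genes. All 3 Kit+ K5- libraries lay above all 3 Kit- K5- libraries for 29 of the 37, against 20.0% of all genes tested. Within the runs, the median log2 difference of the 37 was 0.74, 0.77 and 0.46 in runs 1, 2 and 3. Without Kit+ K5- replicate 1, the library rich in mast cell transcripts, 15 were called higher, and 15 with the block. Without Kit+ K5- replicate 2, 10 were called.

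This comparison rests on the Kit- K5- libraries, and its sign depends on what the libraries are scaled to. With each library scaled to the summed counts of the 18 general epithelial genes, 0 of the 37 genes were higher and 31 lower. For this and the later counts under that scaling, the share of all genes called is not given. That scaling moved the median of all genes to -2.02, and the median of the 37 lay 0.73 above it, against 0.74 with TMM. The part that mesenchyme, leukocyte and erythroid transcripts and the low epithelial signal of the Kit- K5- libraries have in these differences was not tested.

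Among K5+ cells 36 of the 37 differences were positive, and no gene of the set passed without the block. edgeR called 0 of 37 in either direction, where 0.470% of all genes were called higher and 0.399% lower in Kit+ K5+ cells, set against Kit- K5+. At an unadjusted p of 0.05, 22 of the 37 were higher and 0 lower, against 1398 and 1754 of the 17030 genes tested. DESeq2 called 11 of the 37 and limma-voom 0, but the shares of all genes that these tools called are not given here. With the run as a block, edgeR called 11 higher and 0 lower, against 2.78% and 2.08% of all genes. These were Mcm2, Mcm4, Mcm5, Mcm7, Pcna, Pola2, Rpa1, Rrm1, Rrm2, Chaf1b and Uhrf1. The median log2 difference of the 37 was 0.56 without the block, and that of all genes -0.05. All 3 Kit+ K5+ libraries lay above all 3 Kit- K5+ libraries for 22 of 37 genes, against 10.2% of all genes tested, and 28 of 37 were higher in every run, against 18.7%. Within the runs, the median was 0.91, 0.51 and 0.35. The count with the block fell to 2 when Kit+ K5+ replicate 1 was left out, to 4 without Kit- K5+ replicate 1 and to 5 without replicate 3 of Kit+ K5+. It was 0 when the libraries were scaled to general epithelial genes, which moved the median of the 37 (without the block) from 0.56 to 0.18 and that of all genes from -0.05 to -0.41; the gap between them was 0.61 before and 0.58 after. The 18 epithelial genes themselves had a median log2 difference of 0.44 in this comparison, and 15 of the 18 differences were positive. edgeR called 0 of them (6 higher and 0 lower at an unadjusted p of 0.05; 3 and 0 with the block). They summed to 1829 to 3396 CPM for Kit+ K5+ and 1705 to 1896 for Kit- K5+, and the mesenchyme markers to 545 to 748 and 604 to 921. The part of these markers in the differences was not tested.

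The single-positive groups, Kit+ K5- and Kit- K5+, gave a like picture. Mcm5 was 2.59-fold higher in Kit+ K5- (log2 difference 1.38 ± 0.23 (SE), edgeR adjusted p = 0.0136, higher in all 3 runs). In all, 10 of 37 genes were higher and 0 lower, against 1.48% and 1.19% of all genes tested. The others were Cdc6, Mcm2, Mcm3, Mcm7, Rpa1, Lig1, Rrm2, Chaf1b and Uhrf1. With the run as a block 17 were higher and 0 lower, against 4.54% and 3.28%, and Cdt1, Mcm4, Pcna, Pold1, Rpa2, Rrm1 and Tyms joined. The median log2 difference was 0.67 over the 37 genes and -0.03 over all genes. All 3 libraries of Kit+ K5- lay above all 3 of Kit- K5+ for 26 of 37 genes, against 11.2% of all genes tested. With libraries scaled to the general epithelial genes 0 were called, with the block or without, as the median of the 37 moved from 0.67 to 0.34 and that of all genes from -0.03 to -0.33. The epithelial genes had a median log2 difference of 0.35 here, with 2 of 18 higher and 0 lower (5 and 0 with the block). Of the 13 leukocyte and macrophage markers 12 had a positive difference, with a median of 2.72, and 1 was called higher and 0 lower (5 and 0 with the block). Mast cell markers summed to 119.6 to 5135 CPM for Kit+ K5- and 2.75 to 11.6 for Kit- K5+. The part of these markers in the differences was not tested. The count without the block rested on few libraries. It fell to 0 when only these groups were fitted or when Kit+ K5- replicate 2 was left out, to 1 without Kit- K5+ replicate 1, to 4 without Kit- K5+ replicate 2, to 5 without Kit+ K5- replicate 1 and to 6 without Kit+ K5+ replicate 2, Kit- K5- replicate 2 or Kit- K5- replicate 3. With the block, leaving out 1 library gave 6 to 18. The count was 6 when Kit+ K5- replicate 2 was dropped, 10 when the library rich in mast cell transcripts (Kit+ K5- replicate 1) or Kit- K5+ replicate 1 was, and 11 when Kit- K5+ replicate 2 was.

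K5 was compared within each Kit class. Among Kit+ cells edgeR called 0 of 37 genes, and 0 of all genes tested (0%); with the block it again called 0 of 37, where 0.247% of all genes were called. At an unadjusted p of 0.05, 0 were higher and 2 lower, against 409 and 755 of the 17030 genes tested. DESeq2 and limma-voom each called 0 of the 37. The 37 log2 differences lay between -0.80 and 0.50, with a median of -0.11.

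Among Kit- cells 15 of the 37 log2 differences were positive, that is higher in Kit- K5+ than in Kit- K5-, and 22 were negative. The share of the 37 that edgeR called in either direction did not exceed that of all genes, with the block or without. Mcm10, a helicase activation factor, was higher in Kit- K5+ than in Kit- K5- (log2 difference 1.12 ± 0.33 (SE), edgeR adjusted p = 0.0339), and so was Rfc3, a subunit of the clamp loader (1.01 ± 0.25, adjusted p = 0.0152). These 2 of 37 were higher and 0 lower, where 7.33% of all genes tested were higher and 9.03% lower. With the run as a block 5 were higher and 3 lower, against 23.8% of all genes in either direction. Gins1, Rrm1 and Tyms joined the higher ones, and Mcm2, Mcm3 and Gins2 were the lower ones. The median of the 37 was -0.05, and its direction changed between runs. Within runs 1, 2 and 3 it was -0.26, 0.003 and 0.11, with 11, 19 and 22 of the 37 genes higher in Kit- K5+. Leaving out 1 library gave counts of 0, without Kit- K5- replicate 1, Kit- K5- replicate 2 or Kit- K5+ replicate 3, to 6, without Kit- K5+ replicate 1, with 1 without Kit- K5+ replicate 2 or Kit- K5- replicate 3. With the block it gave 1 without replicate 2 of Kit- K5-, 2 without its replicate 1 or 3, 3 without replicate 2 or 3 of Kit- K5+, 5 without Kit+ K5- replicate 2, and 6 or 7 otherwise. With libraries scaled to the epithelial genes 0 were higher and 33 lower, as the median of all genes moved to -1.72.

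Whether the Kit difference itself depended on K5 was tested as an interaction. edgeR called 0 of 37 genes, with the block or without, where 3.99% of all genes were called without it and 8.16% with it. At an unadjusted p of 0.05, 0 were higher and 4 lower, against 1544 and 1632 of the 17030 genes tested. DESeq2 called 1 of the 37 and limma-voom 0, again without the shares of all genes that these tools called. Without the block Rfc3 came closest (log2 difference -1.17 ± 0.36 (SE), adjusted p = 0.0871, and 0.0570 with the block), and with it Mcm10 did (adjusted p = 0.0509). With libraries scaled to the general epithelial genes 25 were higher and 0 lower (30 and 0 with the block), as the median of the 37 moved from -0.21 to 1.49 and that of all genes from -0.09 to 1.61. Leaving out Kit- K5+ replicate 1 gave 2 calls, and 3 with the block. The comparisons share groups, so that their counts are not independent of each other.

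**Figure D2:**
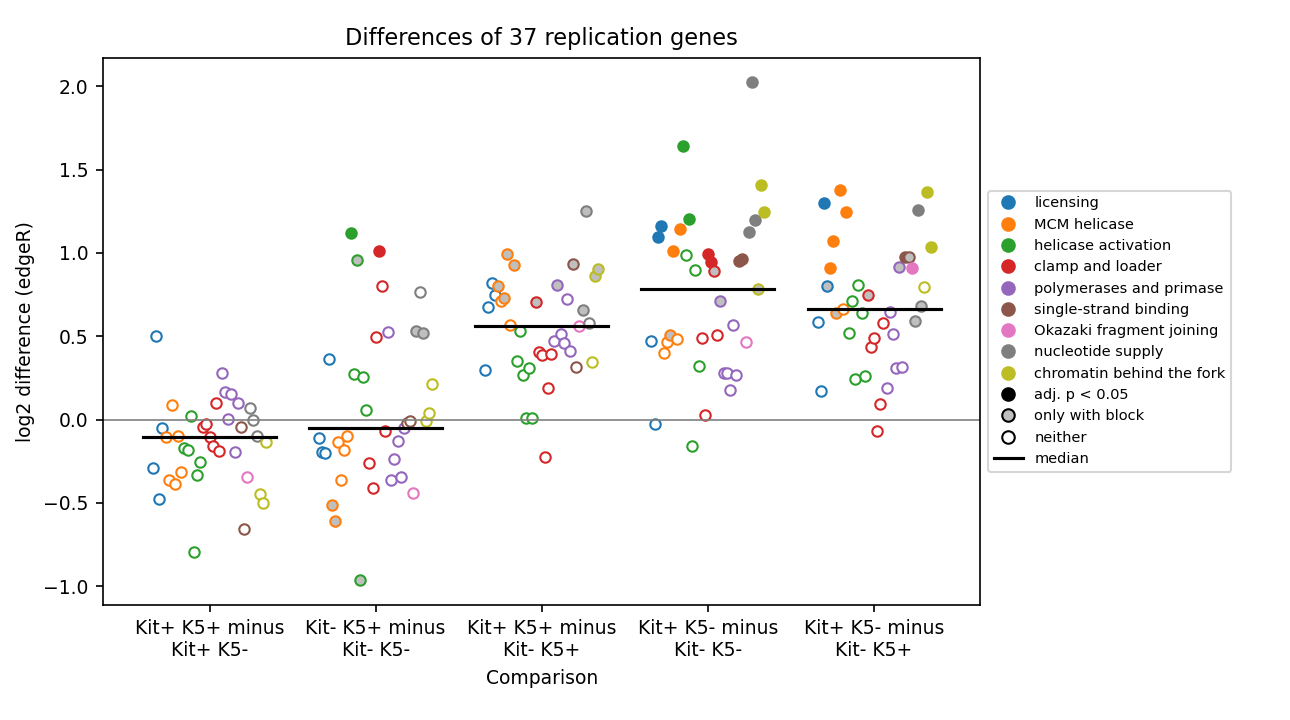
Log2 difference of 37 replication genes (points, coloured by role) in 5 comparisons of sorted groups, from edgeR. Filled points passed an adjusted p of 0.05, grey points passed with the run of library numbers as a block only, open points passed neither, and the line is the median; the Kit comparisons have medians of 0.56 to 0.79 and the K5 comparisons of -0.11 and -0.05.

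Licensing factors were followed gene by gene. Cdc6, the ATPase that loads the helicase with Cdt1, lay at 23.2, 31.3 and 27.9 CPM for Kit+ K5+ (replicates 1 to 3), 38.7, 47.1 and 29.0 for Kit+ K5-, 14.5, 17.04 and 15.1 for Kit- K5+ and 18.4, 16.1 and 19.2 for Kit- K5-. The highest Kit- library was thus below the lowest Kit+ library. Its log2 difference was 1.10 ± 0.25 (SE, edgeR adjusted p = 0.00623) for Kit in K5- cells and 1.30 ± 0.25 (adjusted p = 0.0199) between the single-positive groups. Cdt1, which brings the helicase to the origin, lay at 66.2, 51.4 and 54.1 CPM for Kit+ K5+, 57.6, 67.0 and 53.5 for Kit+ K5-, 23.6, 41.2 and 37.5 for Kit- K5+ and 25.9, 29.6 and 24.1 for Kit- K5-. Here too the Kit classes did not overlap. Its log2 difference for Kit in K5- cells was 1.16 ± 0.23 (adjusted p = 0.00311), and that between the single-positive groups was 0.80 ± 0.23 (adjusted p = 0.0839, and 0.0395 with the block). Of the origin recognition subunits, Orc6 lay at 63.6, 50.9 and 72.0 CPM for Kit+ K5+, 38.6, 49.3 and 43.5 for Kit+ K5-, 29.1, 51.1 and 36.5 for Kit- K5+ and 35.9, 44.6 and 53.3 for Kit- K5-. Kit+ K5+ replicate 2 lay within the ranges of both Kit- groups, and Orc6 passed no comparison. Orc1 had group means of 15.8 to 23.6 CPM and passed none.

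The 6 MCM subunits form the ring of the helicase, 1 copy of each, and unwind DNA ahead of the polymerases. Mcm5, whose promoter words are shown above, lay at 86.9, 83.0 and 84.2 CPM for Kit+ K5+, 116, 129 and 86.7 for Kit+ K5-, 43.8, 52.9 and 31.0 for Kit- K5+ and 51.3, 63.0 and 49.9 for Kit- K5-. The Kit classes did not overlap. The log2 difference was 1.01 ± 0.22 (SE, edgeR adjusted p = 0.00521) for Kit in K5- cells and 0.99 ± 0.22 (adjusted p = 0.0565, blocked 0.00869) among K5+ cells. Mcm7 lay at 87.6, 86.5 and 71.1 CPM for Kit+ K5+, 104, 122 and 78.6 for Kit+ K5-, 40.9, 36.4 and 51.7 for Kit- K5+ and 42.4, 45.1 and 50.6 for Kit- K5-. It showed the same separation, with a difference of 1.14 ± 0.21 (adjusted p = 0.00185) in K5- cells and of 0.93 ± 0.21 (adjusted p = 0.0590, blocked 0.0272) among K5+ cells. Mcm4 lay at 271, 240 and 254 CPM for Kit+ K5+, 257, 231 and 233 for Kit+ K5-, 120, 179 and 164 for Kit- K5+ and 160, 175 and 172 for Kit- K5-. Its groups were as far apart in rank but closer in size, and its 3 Kit comparisons, at 0.51 to 0.73, passed with the block only.

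All 6 MCM genes had their lowest mean in Kit- K5+, and for Mcm2, Mcm3 and Mcm6 the Kit classes overlapped. Mcm6 lay at 120, 151 and 157 CPM for Kit+ K5+, 162, 172 and 124 for Kit+ K5-, 70.1, 107 and 112 for Kit- K5+ and 112, 123 and 92.9 for Kit- K5-, and passed no comparison although its window holds 3 of the searched words. Mcm2 had means of 133 ± 21.0, 144 ± 21.2, 76.5 ± 16.7 and 109 ± 17.8 CPM (SD, n = 3) for Kit+ K5+, for Kit+ K5-, for Kit- K5+ and for Kit- K5-. Mcm3 had 120 ± 18.8, 154 ± 37.99, 73.1 ± 13.0 and 111 ± 16.6 in the same order. With the block both were lower for Kit- K5+ than for Kit- K5- (Mcm2 -0.52, edgeR adjusted p = 0.0429; Mcm3 -0.59, adjusted p = 0.0365), and they were higher for Kit+ K5- than for Kit- K5+ without it (Mcm2 0.91 ± 0.21 (SE), adjusted p = 0.0409; Mcm3 1.07 ± 0.23, adjusted p = 0.0273).

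Among factors that activate the helicase, Mcm10 lay at 48.1, 69.7 and 54.8 CPM for Kit+ K5+, 60.2, 79.7 and 53.9 for Kit+ K5-, 20.8, 60.0 and 54.5 for Kit- K5+ and 16.9, 22.2 and 23.1 for Kit- K5-. In Kit- K5+, replicate 1 lay with the Kit- K5- libraries and the others with the Kit+ libraries. The difference for Kit in K5- cells was 1.64 ± 0.34 (SE, edgeR adjusted p = 0.00339), and that in K5+ cells was 0.35 ± 0.33 (adjusted p = 0.606). The interaction, at -1.29 ± 0.46 (adjusted p = 0.148, and 0.0509 with the block), did not pass. Gins1 had means of 22.9 ± 5.80, 22.5 ± 6.09, 19.0 ± 4.99 and 9.78 ± 1.30 CPM (SD, n = 3) for Kit+ K5+, for Kit+ K5-, for Kit- K5+ and for Kit- K5-, and was called for Kit in K5- cells (1.20 ± 0.31 (SE), adjusted p = 0.0138). Its low group was Kit- K5-, as for Mcm10. Gins2 lay at 30.6, 42.3 and 19.3 CPM for Kit+ K5+, 73.4, 49.0 and 37.7 for Kit+ K5-, 19.9, 35.9 and 36.2 for Kit- K5+ and 59.2, 75.9 and 43.5 for Kit- K5-. It followed K5 more than Kit by its means, with 53.4 and 59.5 CPM in the K5- groups and 30.7 and 30.6 in the K5+ groups. It passed only between the Kit- groups and only with the block (-0.91, adjusted p = 0.0431), and shared exons with Gse1 limit its value. Gins4 lay at 37.0, 45.9 and 28.8 CPM for Kit+ K5+, 40.1, 55.0 and 38.01 for Kit+ K5-, 26.01, 52.1 and 32.7 for Kit- K5+ and 33.1, 37.0 and 36.3 for Kit- K5-. Its Kit+ K5- libraries lay just above the Kit- K5- ones, and every other pair of groups overlapped. Gins4, Gins3 (means of 4.42 to 8.23 CPM) and Cdc45 (17.1 to 33.9) passed no comparison.

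The sliding clamp PCNA lay at 157, 144 and 126 CPM for Kit+ K5+, 137, 165 and 138 for Kit+ K5-, 65.9, 99.9 and 96.4 for Kit- K5+ and 106, 107 and 100 for Kit- K5-. The Kit classes did not overlap for Pcna, and it passed with the block in K5+ cells (0.72, edgeR adjusted p = 0.0363) and between the single-positive groups (0.75, adjusted p = 0.0196). The subunits of its loader did not move as one. Rfc1, the large subunit, lay at 141, 148 and 143 CPM for Kit+ K5+, 141, 168 and 132 for Kit+ K5-, 104, 110 and 112 for Kit- K5+ and 140, 164 and 129 for Kit- K5-. Only its Kit- K5+ libraries lay apart, and it passed no comparison. Rfc3, named because it was called between the Kit- groups, lay at 36.7, 30.9 and 27.3 CPM for Kit+ K5+, 36.1, 42.4 and 27.1 for Kit+ K5-, 30.5, 34.8 and 45.7 for Kit- K5+ and 15.3, 19.1 and 20.5 for Kit- K5-. Kit- K5- was the only group below the other 3. Rfc2 (0.99 ± 0.29 (SE), adjusted p = 0.0256) and Rfc3 (0.95 ± 0.25, adjusted p = 0.0162) were called for Kit in K5- cells. Rfc4 passed there with the block only (0.96, adjusted p = 0.0164), and Rfc5, with means of 21.9 to 32.8 CPM, passed no comparison.

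No polymerase or primase gene passed a comparison without the block. Pole, the catalytic subunit of polymerase epsilon on the leading strand, lay at 109, 125 and 139 CPM for Kit+ K5+, 105, 124 and 120 for Kit+ K5-, 72.3, 85.2 and 123 for Kit- K5+ and 101, 94.9 and 94.1 for Kit- K5-. The Kit- K5+ libraries overlapped with every other group, and Pole passed no comparison. Pola1, the catalytic subunit of polymerase alpha, lay at 148, 145 and 167 CPM for Kit+ K5+, 110, 117 and 151 for Kit+ K5-, 60.4, 129 and 143 for Kit- K5+ and 74.9, 78.8 and 77.5 for Kit- K5-. It passed for Kit in K5- cells with the block only (0.69, edgeR adjusted p = 0.0274). Its partner Pola2 passed in K5+ cells with the block only (0.80, adjusted p = 0.0419), and Pold1, of polymerase delta, between the single-positive groups with the block only (0.88, adjusted p = 0.0433). The primase subunits Prim1 and Prim2 had group means of 45.0 to 64.3 and 33.4 to 46.0 CPM and passed no comparison.

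Single-stranded DNA at the fork is covered by the RPA complex. Rpa1 lay at 88.8, 78.6 and 61.2 CPM for Kit+ K5+, 70.2, 100 and 65.0 for Kit+ K5-, 46.6, 35.4 and 37.7 for Kit- K5+ and 43.7, 45.0 and 33.0 for Kit- K5-, with no overlap of the Kit classes. The difference was 0.95 ± 0.23 (SE, edgeR adjusted p = 0.00970) for Kit in K5- cells and 0.97 ± 0.23 (adjusted p = 0.0436) between the single-positive groups. Rpa2 lay at 33.2, 41.7 and 35.8 CPM for Kit+ K5+, 58.0, 75.5 and 41.1 for Kit+ K5-, 23.5, 37.5 and 27.9 for Kit- K5+ and 31.0, 32.2 and 26.2 for Kit- K5-. Kit+ K5- had the highest mean, although its replicate 3 lay just below Kit+ K5+ replicate 2, and its difference from Kit- K5- was 0.97 ± 0.26 (adjusted p = 0.0154). Lig1, the ligase that seals Okazaki fragments, lay at 130, 123 and 108 CPM for Kit+ K5+, 178, 161 and 120 for Kit+ K5-, 62.9, 79.3 and 102 for Kit- K5+ and 126, 113 and 92.1 for Kit- K5-. It was lowest by mean in Kit- K5+ and was called between the single-positive groups (0.91 ± 0.22, adjusted p = 0.0450).

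Among the enzymes of deoxynucleotide supply, Rrm2 had the largest difference of the 37 genes over the 5 pairwise comparisons, given above. It lay at 226, 223 and 209 CPM for Kit+ K5+, 197, 276 and 187 for Kit+ K5-, 44.9, 109 and 122 for Kit- K5+ and 48.1, 56.7 and 57.5 for Kit- K5-. The lowest Kit+ library was above the highest Kit- library. Its difference was 1.25 ± 0.29 (SE, edgeR adjusted p = 0.0600, and 0.0148 with the block) in K5+ cells and 1.26 ± 0.29 (adjusted p = 0.0391) between the single-positive groups. Rrm1, the large reductase subunit, lay at 274, 264 and 298 CPM for Kit+ K5+, 241, 327 and 230 for Kit+ K5-, 138, 210 and 183 for Kit- K5+ and 120, 126 and 121 for Kit- K5-. Tyms, the thymidylate synthase, lay at 164, 171 and 133 CPM for Kit+ K5+, 143, 173 and 184 for Kit+ K5-, 115, 95.9 and 102 for Kit- K5+ and 62.3, 84.9 and 70.3 for Kit- K5-. For both, the order was Kit+ groups, then Kit- K5+, then Kit- K5-, with no overlap between these steps. The differences for Kit in K5- cells were 1.12 ± 0.19 (adjusted p = 0.00110) for Rrm1 and 1.20 ± 0.19 (adjusted p = 0.000505) for Tyms. Between the Kit- groups both passed with the block only (Rrm1 0.52, adjusted p = 0.0380; Tyms 0.53, adjusted p = 0.0414).

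Of the factors that restore chromatin behind the fork, Uhrf1, which reads hemimethylated DNA and recruits the maintenance methyltransferase, lay at 165, 201 and 168 CPM for Kit+ K5+, 164, 241 and 180 for Kit+ K5-, 68.3, 112 and 105 for Kit- K5+ and 73.2, 102 and 71.3 for Kit- K5-. The Kit classes did not overlap. Its difference was 1.25 ± 0.23 (SE, edgeR adjusted p = 0.00181) in K5- cells, 0.90 ± 0.23 (adjusted p = 0.0787, blocked 0.00857) among K5+ cells and 1.04 ± 0.23 (adjusted p = 0.0338) between the single-positive groups. Chaf1b, a subunit of the histone chaperone CAF-1, lay at 45.3, 52.1 and 42.4 CPM for Kit+ K5+, 71.8, 74.5 and 51.7 for Kit+ K5-, 18.3, 25.7 and 33.1 for Kit- K5+ and 22.1, 25.97 and 26.5 for Kit- K5-, again without overlap. Its difference was 1.41 ± 0.25 (adjusted p = 0.00114) in K5- cells and 1.37 ± 0.25 (adjusted p = 0.0173) between the single-positive groups. Chaf1a, the large subunit, lay at 35.7, 46.3 and 19.0 CPM for Kit+ K5+, 44.6, 53.1 and 40.3 for Kit+ K5-, 26.5, 26.5 and 26.6 for Kit- K5+ and 24.9, 27.1 and 28.1 for Kit- K5-. It passed only for Kit in K5- cells with the block (0.77, adjusted p = 0.0324), and Kit+ K5+ replicate 3 lay below all Kit- libraries.

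**Figure D3:**
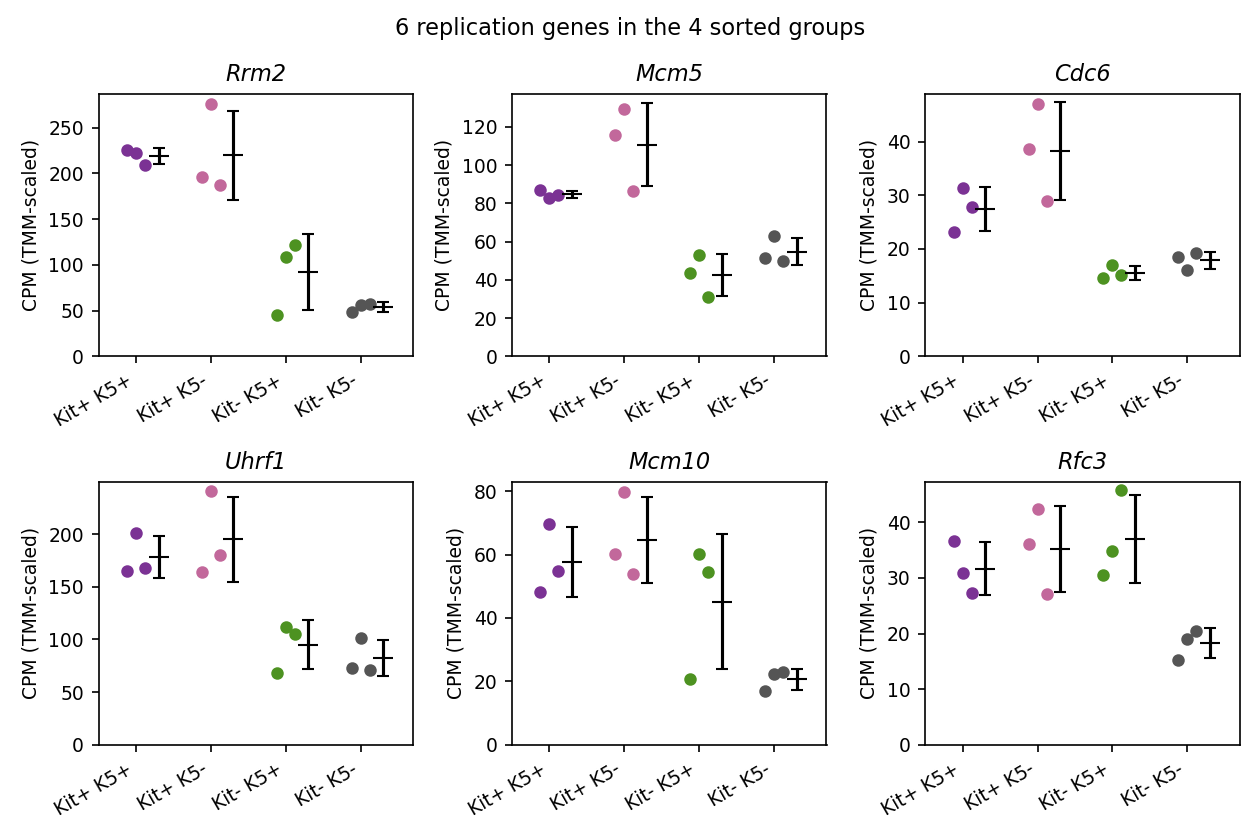
Level of Rrm2, Mcm5, Cdc6, Uhrf1, Mcm10 and Rfc3 in CPM (TMM-scaled, axes from 0) in the 4 sorted groups; each point is a library and the bar beside it is the mean ± SD of 3 libraries. For Rrm2, Mcm5, Cdc6 and Uhrf1 both Kit- groups lie below both Kit+ groups, while for Rfc3 only Kit- K5- lies below the rest and for Mcm10 Kit- K5+ spreads from 20.8 to 60.0 CPM.

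Other genes of the pathway were taken from a fixed list of 39 further replication genes, all tested. In the comparison of Kit in K5- cells 21 were higher and 0 lower (25 and 0 with the block), led by Asf1b, a histone chaperone, Gmnn, which encodes the licensing inhibitor geminin, Dctpp1, a nucleotide pyrophosphatase, and Dut, the dUTPase. Asf1b lay at 34.5 ± 1.01 CPM (SD, n = 3) for Kit+ K5+, 26.5 ± 6.66 for Kit+ K5-, 20.7 ± 4.71 for Kit- K5+ and 6.81 ± 0.741 for Kit- K5-. In K5+ cells edgeR called 0 of the 39 (20 higher and 0 lower at an unadjusted p of 0.05; 9 and 0 with the block). Between the single-positive groups 4 were higher and 0 lower (13 and 0 with the block). These were Dctpp1, Pold2, a subunit of polymerase delta, and Supt16 and Ssrp1, the subunits of the histone chaperone FACT. Between the Kit- groups 6 were higher and 1 lower in Kit- K5+ (9 and 1 with the block), and the lower one was Timeless, of the fork protection complex, at 19.3 ± 2.74 against 40.0 ± 7.37 CPM. The medians of the 39 were 0.74, 0.62 and 0.55 for Kit in K5- cells, Kit in K5+ cells and the single-positive groups. Those of the 37 genes were 0.79, 0.56 and 0.67.

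Regulators of the G1 to S transition (29 listed and tested) went more than 1 way. For Kit in K5- cells 10 were higher and 2 lower (12 and 2 with the block). In K5+ cells 2 were higher and 0 lower (8 and 0 with the block), namely E2f8, a repressor of the E2F family (1.12, edgeR adjusted p = 0.0450), and Ccnd1, which encodes cyclin D1 (1.67, adjusted p = 0.0486). Between the single-positive groups 1, Ccnd1, was higher and 0 lower (3 and 0 with the block). Ccnd1 lay at 567 ± 142 CPM (SD, n = 3) for Kit+ K5+, 825 ± 139 for Kit+ K5-, 178 ± 89.9 for Kit- K5+ and 171 ± 61.8 for Kit- K5-. The lower genes for Kit in K5- cells were Cdkn1c, the cell cycle inhibitor p57, and Ccnd3, which encodes cyclin D3, both with their highest mean in Kit- K5-. The medians of the 29 were 0.53, 0.44 and 0.39 for Kit in K5- cells, Kit among K5+ cells and the single-positive groups.

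Genes of mitosis were taken from a list of 26, also drawn up with earlier results of these data known. Between the Kit- groups 15 of 26 were higher in Kit- K5+ and 0 lower (18 and 0 with the block), with a median log2 difference of 0.78 against -0.05 for the 37 replication genes. They were led by Kif23, Ect2, Prc1 and Nusap1, which act on the central spindle or in cytokinesis. Kif23 lay at 188 ± 15.0 CPM (SD, n = 3) for Kit+ K5+, 150 ± 29.6 for Kit+ K5-, 171 ± 34.8 for Kit- K5+ and 66.2 ± 9.59 for Kit- K5-. For Kit in K5- cells 22 of 26 were higher and 0 lower (23 and 0 with the block), with a median of 1.05. Between the single-positive groups 1, the chromosomal passenger kinase gene Aurkb, was higher and 0 lower (4 and 1 with the block), with a median of 0.19 against 0.67 for the replication genes. In K5+ cells Aurkb alone was higher (1.25, edgeR adjusted p = 0.0197; 5 and 0 with the block), with a median of 0.44. The summed level of the 26 genes was 5280 to 6662 CPM for Kit+ K5+, 4242 to 5116 for Kit+ K5-, 3775 to 4579 for Kit- K5+ and 2322 to 2644 for Kit- K5-. By sum, mitosis genes thus ran lowest in Kit- K5-, whereas 22 of 37 replication genes had their lowest mean in Kit- K5+. Whether the lists differ from each other was not tested. Both comparisons with Kit- K5- carry the markers given above, whose part was not tested.

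**Figure D4:**
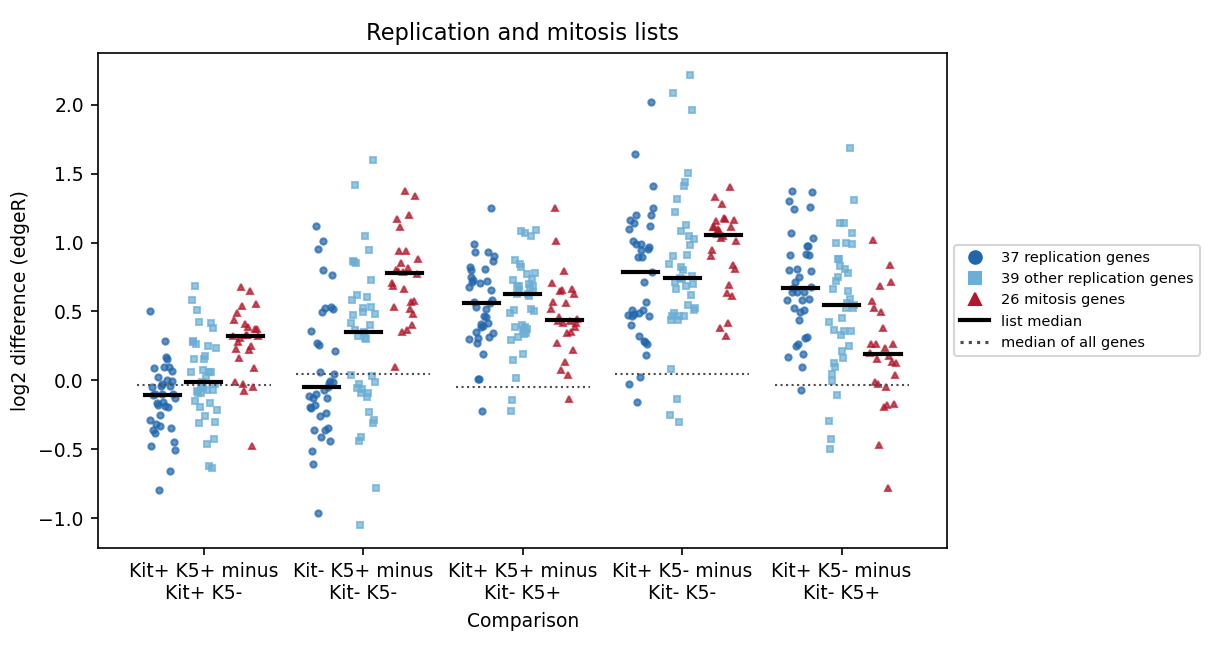
Log2 differences from edgeR of 37 replication genes (circles), 39 other replication genes (squares) and 26 mitosis genes (triangles) in 5 comparisons, each point a gene, with the list median as a line and the median of all genes tested as a dotted line. Between the Kit- groups the medians are -0.05 for the 37 replication genes and 0.78 for the mitosis genes, and between the single-positive groups they are 0.67 and 0.19.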

How the data were processed

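The authors deposited a whole-number count of reads for each gene in each library. Reads were single, of 50 nt, and went to GRCm38 through STAR 2.4.2a and then to featureCounts, per the labels' protocols. Further names in the submitters' processing notes are the release of featureCounts (1.4.6-p3), Picard 1.129, FastQC and the patch level of the build, GRCm38.p3. The sources used here do not give the annotation release or whether strand was used in counting. Positions and exon lengths are from GENCODE M21 and promoter windows from RefSeq (GRCm38.p6).

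The analysis used edgeR 4.0.16 (filterByExpr, TMM, robust dispersions, quasi-likelihood test) and limma 3.58.1 under R 4.3.3; DESeq2 1.42.0 and limma-voom were alternatives. All 12 libraries entered 1 fit with a coefficient per group (8 residual degrees of freedom, common biological coefficient of variation 0.437), and p-values were adjusted by Benjamini-Hochberg over 17030 genes at 0.05. A second fit added the run of library numbers as a block (6 residual degrees of freedom, coefficient 0.344). The pairing was checked on deviations of log2(CPM + 2) from the group means, for the pairs of groups compared above. In these pairs, libraries of a run correlated at 0.111 to 0.499 across genes, above 0.1. Kit+ K5+ against Kit- K5- was not checked. The runs were therefore treated as pairs in the second fit only, although the labels do not state what the libraries of a run share. Within-run medians are on log2(CPM + 1). Standard errors follow from the F statistic. The scripts were tested on simulated data.

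The members and lists were chosen with earlier results of these data known. Of the 38 genes, values in every library were given for the 12 with the smallest adjusted p in any pairwise comparison in either fit, and for up to 3 of the most abundant genes of each role; the remaining genes were given by means or ranges. Other lists were given as counts, naming at most 4 genes called per comparison. Depth limits the rarest genes: counting error alone is large for Fen1 and Gins3.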

Additional observations from a re-analysis of the deposited data

Results flagged for a closer look

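The Kit difference in K5+ cells was compared with that in K5- cells for each listed gene of replication, G1 to S control and mitosis. In edgeR (adjusted p over 17030 genes) 3 genes passed this test of the difference itself. By list these were 0 of the 37 genes, 1 of 39 other replication genes, 2 of 29 G1 to S regulators and 0 of 26 mitosis genes. Of all genes tested, 3.99% passed. For Gmnn, which encodes the licensing inhibitor geminin, the log2 difference in K5+ cells minus that in K5- cells was -1.57 (adjusted p = 0.0442). Its level was 22.2 ± 4.32 CPM (SD, n = 3) for Kit+ K5+, 24.6 ± 6.87 for Kit+ K5-, 15.5 ± 1.01 for Kit- K5+ and 5.80 ± 0.515 for Kit- K5-. For Ccnd3, which encodes cyclin D3, the value was 1.94 (adjusted p = 0.0151), and for Cdkn1c, which encodes the inhibitor p57, it was 2.45 (adjusted p = 0.0200). Ccnd3 lay at 38.1 ± 9.64, 31.4 ± 6.55, 34.7 ± 12.3 and 110 ± 22.6 CPM and Cdkn1c at 413 ± 60.1, 233 ± 76.2, 536 ± 294 and 1659 ± 294 in the same order of groups. In all 3 genes the Kit- K5- group stood apart, the group whose mesenchyme markers summed to 11167 to 18356 CPM and erythroid markers to 136 to 765. The part of those transcripts in the differences was not tested.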

How the results depend on the processing

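Counts of the 37 genes called (with 2, 0, 15, 10 and 0 for K5 in Kit- cells, Kit in K5+ cells, Kit in K5- cells, the single-positive groups and the interaction) moved by over 1.5 times as follows; K5 in Kit+ cells gave 0 in every setting run. For K5 in Kit- cells the count was 5 with upper-quartile scaling, 5 with DESeq2, 1 with limma-voom, 1 with only the compared groups, 0 and 1 without runs 2 and 3, 8 with the replicate block, and 8, 7 and 9 with the block plus DESeq2 size factors, upper-quartile scaling or mitochondrial transcripts left out. For Kit in K5+ cells it was 11 with DESeq2, 7 with no filter, 11 with the block, and 10, 5 and 12 with the block plus those 3 scalings. For Kit in K5- cells it was 3 without run 2. For the single-positive groups it was 17 with the block, 17 and 18 with the block plus DESeq2 size factors or mitochondrial transcripts left out, 0 with only the compared groups, and 0, 0 and 5 without runs 1, 2 and 3. For the interaction it was 1 with DESeq2, and 1 and 2 with the block plus DESeq2 size factors or upper-quartile scaling. Scaled to general epithelial genes the counts were 33 (36 with the block), 31 (34), 0 (0) and 25 (30) for K5 in Kit- cells, Kit in K5- cells, the single-positive groups and the interaction, and every call in the first 2 was then a lower level. The median of all genes then lay at -1.72, -2.02, -0.33 and 1.61 (-0.41 for Kit in K5+ cells, with 0 called), and upper-quartile scaling moved it from -0.05 to -0.16 for Kit in K5+ cells, from 0.04 to 0.15 for K5 in Kit- cells and from -0.09 to -0.25 for the interaction.

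Of 27 single calls, 10 were kept without any 1 library (Cdc6, Cdt1, Mcm5, Mcm7, Mcm10, Rrm1, Rrm2, Tyms, Chaf1b and Uhrf1, all for Kit in K5- cells) and 0 in every setting run. The epithelial scaling turned the sign of 17: Mcm10 -0.62 and Rfc3 -0.72 between the Kit- groups, and in the comparison of Kit among K5- cells Cdc6 -0.99, Cdt1 -0.92, Mcm5 -1.09, Mcm7 -0.94, Mcm10 -0.43, Gins1 -0.86, Rfc2 -1.11, Rfc3 -1.14, Rpa1 -1.14, Rpa2 -1.15, Rrm1 -0.95, Rrm2 -0.041, Tyms -0.84, Chaf1b -0.68 and Uhrf1 -0.82. Leaving out each library in turn gave 0 to 6 between the Kit- groups, 0 to 3 for Kit among K5+ cells, 10 to 19 for Kit among K5- cells, 0 to 11 for the single-positive groups and 0 to 2 for the interaction. With the block these ranges were 1 to 7, 2 to 12 (4 without Kit- K5+ replicate 1), 14 to 24 (23 without Kit- K5+ replicate 1), 6 to 18 (16 when Kit+ K5+ replicate 2 or Kit- K5- replicate 3 was left out) and 0 to 3. The settings that combine the block with another choice were added after seeing the data. Apart from the main fit and the block alone, shares of all genes called are not given, so these counts describe the set alone. The cause of the changes in counts was not tested.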
